A study of Mus musculus with 4 samples.

Results

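The AP-2 family of transcription factors and the proteins known to act on it were described here as 7 genes: *Tfap2a*, *Tfap2b* and *Tfap2c*, which encode AP-2 factors, *Kctd1* and *Kctd15*, which encode BTB-domain proteins that hold back AP-2 activity, and *Cited2* and *Cited4*, which encode coactivator adaptors. The genes were chosen by symbol from the 31053 genes counted, and all 7 were found, each as 1 row. Single-nucleus RNA-seq was done on medulla-enriched kidney slices of 4 male mice aged 12 weeks, with 1 library per mouse. The 2 control mice carried floxed *Tfap2a* alleles and no Cre (Cre-, Tfap2aFlox/Flox), and the 2 knockout mice were Hoxb7Cre+;Tfap2afl/fl, so all 4 mice carried floxed alleles. Hoxb7Cre is driven by the *Hoxb7* promoter in the ureteric lineage, where it recombines in collecting ducts and lower urinary tract epithelia. In *Tfap2a*, exons 5 and 6 lie between the loxP sites, and the UMIs come from the 3′ end of transcripts, so a *Tfap2a* UMI in a knockout nucleus does not show an intact transcript and the level of *Tfap2a* does not check the genotype.

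AP-2 factors bind DNA as dimers at GC-rich sites and switch on or hold back genes of epithelial, neural crest and limb development. CITED proteins bridge AP-2 factors to the acetyltransferases CBP and p300 and raise AP-2 activity, and CITED2 also competes with HIF-1α for the same coactivators. KCTD1 and KCTD15 bind AP-2 factors and reduce their activity. In the kidney, *Tfap2b* is known for its role in the distal convoluted tubule and *Tfap2a* for its role in the collecting duct.

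By the RefSeq annotation of GRCm38.p6, which shares its coordinates with the mm10 genome of the files, *Tfap2a* lies at chr13:40713802-40738238, *Tfap2b* at chr1:19208908-19238845, *Tfap2c* at chr2:172545678-172558622, *Kctd15* at chr7:34636999-34655509, *Cited2* at chr10:17723228-17725674 and *Cited4* at chr4:120666563-120667820. The 250 bases before the annotated start are shown for *Cited2* and *Cited4*, the adaptors whose levels were both higher in collecting duct principal cells than in the connecting tubule of controls, and for *Kctd15*, the member whose promoter held the AP-2 core motif GCCNNNGGC. Sequences are from RefSeq on GRCm38.p6, on the strand of the gene, with a match of the motif in capitals. The motif reads the same on both strands, and it was held by 13.7% of 32851 promoters of the same length.
Cited2, chr10:17722978-17723227, + strand: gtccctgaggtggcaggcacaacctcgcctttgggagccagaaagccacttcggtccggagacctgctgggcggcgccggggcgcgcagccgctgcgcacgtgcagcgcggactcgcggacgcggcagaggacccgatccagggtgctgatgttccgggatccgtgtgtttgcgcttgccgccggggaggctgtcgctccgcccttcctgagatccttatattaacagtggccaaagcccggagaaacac
Cited4, chr4:120666313-120666562, + strand: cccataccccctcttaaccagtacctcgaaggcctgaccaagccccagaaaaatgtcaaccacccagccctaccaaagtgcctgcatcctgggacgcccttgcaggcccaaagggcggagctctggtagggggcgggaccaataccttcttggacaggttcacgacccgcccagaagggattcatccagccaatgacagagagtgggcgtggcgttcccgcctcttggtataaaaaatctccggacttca
Kctd15, chr7:34655510-34655759, − strand: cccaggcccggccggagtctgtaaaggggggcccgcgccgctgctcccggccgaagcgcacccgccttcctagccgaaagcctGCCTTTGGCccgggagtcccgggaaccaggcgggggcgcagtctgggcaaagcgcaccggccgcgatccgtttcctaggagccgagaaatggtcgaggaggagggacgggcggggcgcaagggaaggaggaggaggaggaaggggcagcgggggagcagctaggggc
The *Kctd15* window held 1 match, GCCTTTGGC, and the *Cited2* and *Cited4* windows held none of these letters. Of the 8 windows listed for 5 of the members, 2 held the motif, both of *Kctd15*. The windows listed for *Tfap2a* and *Tfap2b* lie inside the genes, after their first starts, and held no match. A match is a description of letters and not of binding.

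The 4 libraries held 22179410 to 44964099 UMIs, and 27343 nuclei passed the filters, 5430 to 7998 per mouse, with median UMIs per nucleus of 2506 to 2797. Of these nuclei, 25761 fell into 12 named classes: podocytes, PT (proximal tubule), TL and TAL (the thin limb and the thick ascending limb of Henle's loop), DCT and CNT (the distal convoluted and the connecting tubule), CD-PC and CD-IC (principal and intercalated cells of the collecting duct), DMEP (the deep medullary epithelium that lines the pelvis), EC (endothelium), interstitial cells and immune cells. The CD-PC clusters held 6 and 9 of 9 listed markers, with *Aqp2* leading both, and the DMEP cluster held 6 of 6. Levels are given as CPM, the UMIs of a gene per 1000000 UMIs of the class in a mouse. Median mitochondrial shares were 1.66% and 0.671% in the control and 1.05% and 0.417% in the knockout libraries, and 75 barcodes were kept in more than 1 library. Over the nuclei kept, the members gave 8946 UMIs for *Kctd1*, 7185 for *Tfap2b*, 4513 for *Cited2*, 1061 for *Tfap2a*, 545 for *Kctd15*, 334 for *Cited4* and 4 for *Tfap2c*.

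In control mice, *Tfap2a* was a gene of the distal nephron and collecting duct. DCT, CNT, CD-PC and CD-IC together held 82.6% and 91.3% of its UMIs over the named classes in control mice 1 and 2. Its level was 112 and 124 CPM in CNT, 105 and 106 CPM in DCT, 70.6 and 87.4 CPM in CD-IC, 57.2 and 96.4 CPM in CD-PC and 42.2 and 25.1 CPM in DMEP. The order of means was CNT, DCT, CD-IC, CD-PC and DMEP, and among these neighbours the values of CD-IC and CD-PC overlapped. In TAL *Tfap2a* stood at 9.13 and 4.95 CPM, from 25 and 15 UMIs, and in PT it gave 3 and 1 UMIs in 4067 and 1952 nuclei, or 0.230 and 0.138 CPM. A *Tfap2a* UMI was seen in 0.0738% and 0.0512% of PT nuclei, which serve here as the background for a gene that PT should lack, against 25.9% and 31.6% of CNT nuclei. Median depths were 3026 and 3692.5 UMIs per nucleus in PT and 2470.5 and 2851 in CNT, so the shallower class had the higher share. With each nucleus thinned to 1000 UMIs the shares were 0.0250% and 0% in PT and 8.88% and 8.70% in CNT.

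*Tfap2b*, the paralogue that shares the DNA-binding and dimerization domain of *Tfap2a*, had its highest mean level in TAL. Its level was 400 and 455 CPM in TAL, 282 and 483 CPM in DCT and 206 and 307 CPM in CNT, and the values of each of these neighbours overlapped. It dropped to 44.3 and 50.02 CPM in CD-PC, 29.96 and 11.2 CPM in CD-IC and 11.5 and 9.12 CPM in DMEP. TAL alone held 74.5% and 76.0% of the *Tfap2b* UMIs over the named classes. Within TAL the 3 clusters had like levels, 394 and 449 CPM in the largest cluster, 377 and 456 CPM in the first and 454 and 499 CPM in the second of the 2 clusters with high *Enox1*. TL, at 28.9 and 27.9 CPM, and EC, at 21.4 and 25.2 CPM, were well below TAL, beside a level of 47.8 and 58.7 CPM in the free RNA of barcodes under 100 UMIs.

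*Tfap2c*, the AP-2 factor of trophoblast and germ cells, was at the edge of detection. It gave 2 UMIs in the nuclei kept of each control mouse and none in those of either knockout mouse, and the 4 UMIs lay in PT, CD-PC and DMEP. In TAL, CNT and DCT of the controls no *Tfap2c* UMI was seen, and it was not tested in any comparison.

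*Kctd1*, the AP-2 inhibitor with most UMIs, peaked in the DCT. Its level was 759 and 1312 CPM in DCT, 462 and 700 CPM in CNT, 364 and 470 CPM in TAL and 193 and 141 CPM in CD-IC. It was lower in CD-PC, at 67.9 and 73.2 CPM, and lowest among the tubule classes in PT, at 18.3 and 17.5 CPM. The DCT values did not overlap those of CNT, while those of CNT and TAL overlapped. Within TAL, *Kctd1* stood at 561 and 644 CPM and 575 and 736 CPM in the 2 clusters with high *Enox1*, above the 278 and 398 CPM of the largest TAL cluster. *Kctd15*, its paralogue, was low in every class. Its highest levels were 19.7 and 16.0 CPM in DCT and 20.7 and 10.3 CPM in CD-PC, from 9 and 5 and from 29 and 20 UMIs. PT, with most nuclei, gave 62 and 52 *Kctd15* UMIs, or 4.76 and 7.17 CPM.

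*Cited2* had a wider pattern, with UMIs in every class. Its level was 247 and 160 CPM in CD-PC, 205 and 197 CPM in TL and 123 and 114 CPM in DMEP. It was 85.9 and 96.9 CPM in CNT, 48.1 and 86.4 CPM in DCT, 65.3 and 31.7 CPM in TAL and 43.1 and 53.3 CPM in PT. The lowest mean of the 12 classes was that of CD-IC, at 34.2 and 15.7 CPM. In the free RNA of the control libraries *Cited2* stood at 69.9 and 103 CPM. The levels of PT, TAL, DCT, EC, CD-IC and immune cells lay below this in both control mice. Podocytes gave 45.0 and 190 CPM from 5 and 10 UMIs, so their place in the order was not fixed. *Cited4* was seen above all in CD-PC, at 21.4 and 36.1 CPM, which was above both values of DMEP, 15.4 and 6.84 CPM. It gave no UMI in DCT of either control mouse and 1 and 3 UMIs in CNT.

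**Figure D1:**
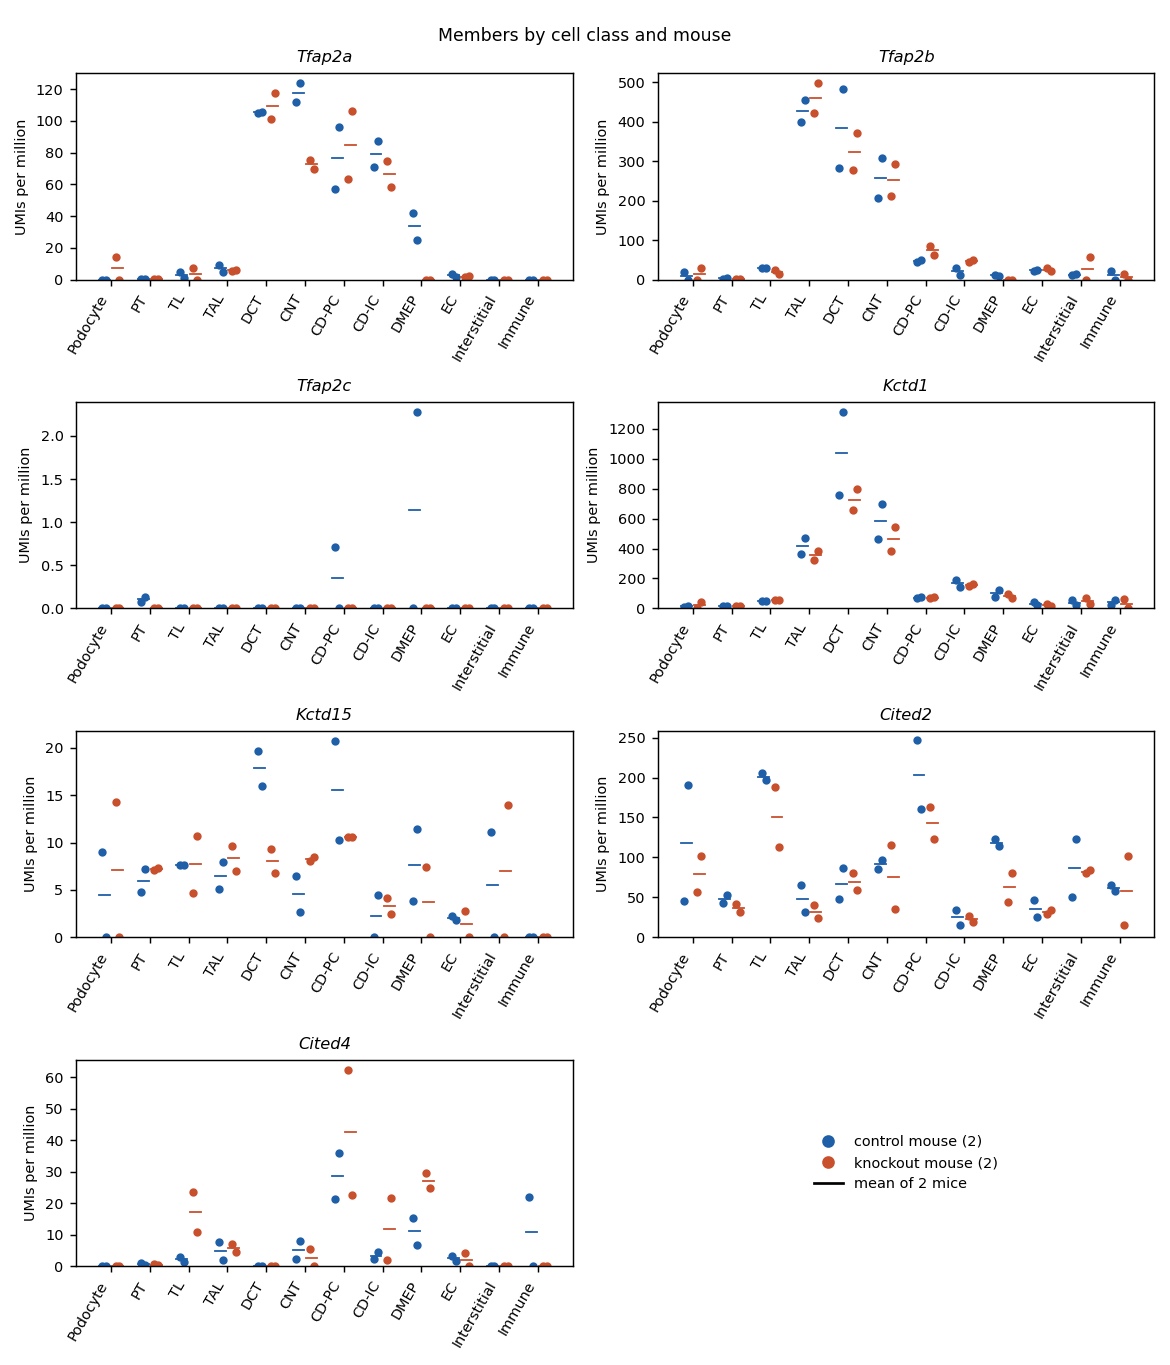
Level of each of the 7 genes in CPM (y axis, linear, a scale of its own for each gene) in the 12 cell classes (x axis), with 1 point per mouse, the 2 controls in blue and the 2 knockouts in red, and a line at the mean of 2 mice. *Tfap2a* sits in DCT, CNT, CD-PC and CD-IC, *Tfap2b* in TAL, DCT and CNT, *Kctd1* peaks in DCT, *Cited2* in CD-PC and TL, and *Cited4* in CD-PC, while *Tfap2c* reaches at most 2.28 CPM.

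The levels of adjoining segments in controls were compared in 1 edgeR quasi-likelihood fit over the class sums of the 4 mice, with a mean per class and genotype and a term for the mouse. Adjusted p-values are by Benjamini-Hochberg over all 20175 genes of the fit, and p-values rest on 2 control mice. Over 7 contrasts and 6 members with enough UMIs, 22 of 42 tests were called at an adjusted p under 0.05, against 17 by DESeq2 and 14 with nuclei under 1% mitochondrial UMIs. Beside them, the share of all genes called is given for each contrast.

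From PT to TL, 4 of the 6 members were called, all higher in TL, where 32.5% of all genes were called. *Tfap2b* was higher by a log2 of 2.92 ± 0.38 (SE; adjusted p = 2.81e-13), *Cited2* by 1.66 ± 0.22 (adjusted p = 3.69e-13) and *Kctd1* by 1.10 ± 0.28 (adjusted p = 0.000524; 0.95 and adjusted p = 0.0816 without control mouse 2). The *Tfap2a* call (2.99 ± 1.04, adjusted p = 0.0144) rests on 3 and 1 UMIs in TL; with called doublets left out its difference turned to −1.61, and with nuclei under 1% mitochondrial UMIs to −1.05, neither called, and without control mouse 1 it was 2.34 (adjusted p = 0.467). From TL to TAL, 3 members were called (20% of all genes). *Tfap2b* rose by 4.14 ± 0.28 (adjusted p = 4.42e-48) and *Kctd1* by 3.23 ± 0.26 (adjusted p = 1.49e-33), while *Cited2* fell by 1.86 ± 0.23 (adjusted p = 1.87e-14).

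From TAL to DCT, 2 members were called, where 6.1% of all genes were. *Tfap2a* was higher in DCT by 3.84 ± 0.34 (adjusted p = 1.14e-26) and *Kctd1* by 1.23 ± 0.21 (adjusted p = 2.94e-07). *Tfap2b* differed by −0.26 ± 0.21 (adjusted p = 0.771). From DCT to CNT 1 member was called (3.37% of all genes): *Kctd1* was lower in CNT by a log2 difference of −0.81 ± 0.22 (adjusted p = 0.00821), which was not called without either control mouse, with adjusted p-values of 0.133 and 0.649. *Tfap2a* differed by 0.17 ± 0.30 and *Tfap2b* by −0.55 ± 0.24 between these segments, neither called.

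From CNT to CD-PC, 4 members were called (17.4% of all genes), both adaptors upward and *Tfap2b* and *Kctd1* downward. *Tfap2b* differed by −2.47 ± 0.25 (adjusted p = 9.17e-21) and *Kctd1* by −3.06 ± 0.24 (adjusted p = 5.1e-35). *Cited2* was higher in CD-PC by 1.10 ± 0.26 (adjusted p = 0.000216) and *Cited4* by 2.59 ± 0.71 (adjusted p = 0.0025). The *Cited2* call was lost without control mouse 1 (0.69, adjusted p = 0.353), and the *Cited4* call without either control mouse (adjusted p = 0.142 and 0.093). *Tfap2a* differed by −0.65 ± 0.27 (adjusted p = 0.0824). CD-PC here pools principal cells with sodium channel genes and those of the inner medullary collecting duct. The latter were 67.0% and 47.3% of control principal nuclei when clustered again. In the former, *Tfap2b* stood at 157 and 116 CPM and *Kctd1* at 134 and 145 CPM, also below CNT. Among the former, *Cited2* stood at 36.5 and 43.7 CPM with low *Aqp3*, below CNT, and at 179 and 137 CPM with high *Aqp3*.

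Between the 2 kinds of collecting duct cell, 5 members were called (18.5% of all genes). Intercalated cells had less *Cited2* (−3.11 ± 0.32, adjusted p = 8.47e-21), *Cited4* (−3.27 ± 0.74, adjusted p = 0.000132), *Kctd15* (−2.84 ± 0.89, adjusted p = 0.0102) and *Tfap2b* (−1.27 ± 0.38, adjusted p = 0.0073), and more *Kctd1* (1.15 ± 0.25, adjusted p = 8.39e-05). *Tfap2a* differed by −0.08 ± 0.28 (adjusted p = 0.952). Without control mouse 1, *Kctd15* (−1.26) and *Kctd1* (0.87) were not called, with adjusted p-values of 0.663 and 0.145, and without control mouse 2 *Tfap2b* (−0.57) and *Cited4* (−3.27) were not, with 0.651 and 0.0668. DMEP, the epithelium that lines the pelvis, had less than CD-PC of *Tfap2b* (−2.39 ± 0.50, adjusted p = 5.15e-05), *Tfap2a* (−1.42 ± 0.36, adjusted p = 0.00201) and *Cited2* (−0.89 ± 0.25, adjusted p = 0.00778), 3 of 6 members against 8.45% of all genes. The *Tfap2a* call was lost without control mouse 2 (−0.47, adjusted p = 1), as was that of *Tfap2b* (−1.97, adjusted p = 0.254), and the *Cited2* call without either control mouse.

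The 3550 nuclei of DCT, CNT, CD-PC and CD-IC were then clustered again without the members, which gave 10 named subclusters. They were DCT with low and with some *Trpv5*, CNT with and with little *Slc12a3*, principal cells with sodium channel genes and with low or high *Aqp3* (PC), inner medullary collecting duct (IMCD) principal cells with *Slc14a2* and with high or low *Aqp3*, and type A and type B intercalated cells. *Tfap2a* was present through all 10 in controls. Its levels ran from 154 ± 23.4 CPM (mean ± SD, n = 2 mice) in CNT with little *Slc12a3* to 40.6 ± 26.5 CPM in IMCD with low *Aqp3*. In the principal cells with high *Aqp3* it stood at 112 and 135 CPM, in those with low *Aqp3* at 85.1 and 83.8 CPM, in IMCD with high *Aqp3* at 67.7 and 116 CPM and in IMCD with low *Aqp3* at 21.8 and 59.4 CPM. Type A cells had 69.2 and 89.2 CPM and type B cells 76.2 and 86.0 CPM, and these values overlapped.

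The mean level of *Tfap2b* was lower in principal cells than in DCT and CNT and lowest in IMCD. It stood at 282 and 484 CPM in DCT with low *Trpv5*, at 267 and 331 CPM in CNT with *Slc12a3* and at 151 and 324 CPM in CNT with little *Slc12a3*. In principal cells it stood at 207 and 94.7 CPM with low *Aqp3* and at 139 and 127 CPM with high *Aqp3*. In control mouse 1 the principal cells with low *Aqp3* thus lay above CNT with little *Slc12a3*. In IMCD with high *Aqp3* it was 4.83 and 1.90 CPM, from 2 and 1 UMIs, and in IMCD with low *Aqp3* 12.7 and 9.57 CPM. *Kctd1* was highest in DCT with some *Trpv5*, at 986 and 1410 CPM, and went from 770 and 1312 CPM in DCT with low *Trpv5* through 354 and 545 CPM in CNT with *Slc12a3* and 125 and 125 CPM in principal cells with high *Aqp3* to 34.6 and 24.9 CPM in IMCD with low *Aqp3*. Type B cells had 232 and 180 CPM of *Kctd1*, above the 138 and 127 CPM of type A cells in both mice.

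*Cited2* had its order the other way within the principal cells. It went from 36.5 and 43.7 CPM in those with low *Aqp3* to 179 and 137 CPM in those with high *Aqp3*, 222 and 142 CPM in IMCD with high *Aqp3* and 346 and 257 CPM in IMCD with low *Aqp3*. *Cited4* was nearly confined to 1 of the 10 subclusters. It stood at 103 and 114 CPM in principal cells with high *Aqp3*, from 23 and 59 UMIs, and the next highest were principal cells with low *Aqp3* at 24.3 and 14.6 CPM. IMCD with low *Aqp3*, type B cells, both DCT subclusters and CNT with *Slc12a3* gave no *Cited4* UMI in either control mouse.

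IMCD and the principal cells with sodium channel genes were compared in 1 further fit over the fine classes. Here 5 of 6 members were called and 19.7% of all 15119 genes tested. *Tfap2b* was lower in IMCD (log2 difference −4.02 ± 0.37, adjusted p = 4.22e-25), as were *Cited4* (−4.76 ± 0.56, adjusted p = 8.72e-16), *Kctd1* (−1.70 ± 0.30, adjusted p = 2.64e-07) and *Tfap2a* (−0.73 ± 0.28, adjusted p = 0.0471), and *Cited2* was higher (1.07 ± 0.25, adjusted p = 0.000286). The *Tfap2a* call held in 1 of 11 alternatives. It was lost in each of 4 fits that left out 1 mouse, with differences from −1.22 to −0.34. *Kctd15* differed by −0.03 ± 0.59 (adjusted p = 0.993).

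**Figure D2:**
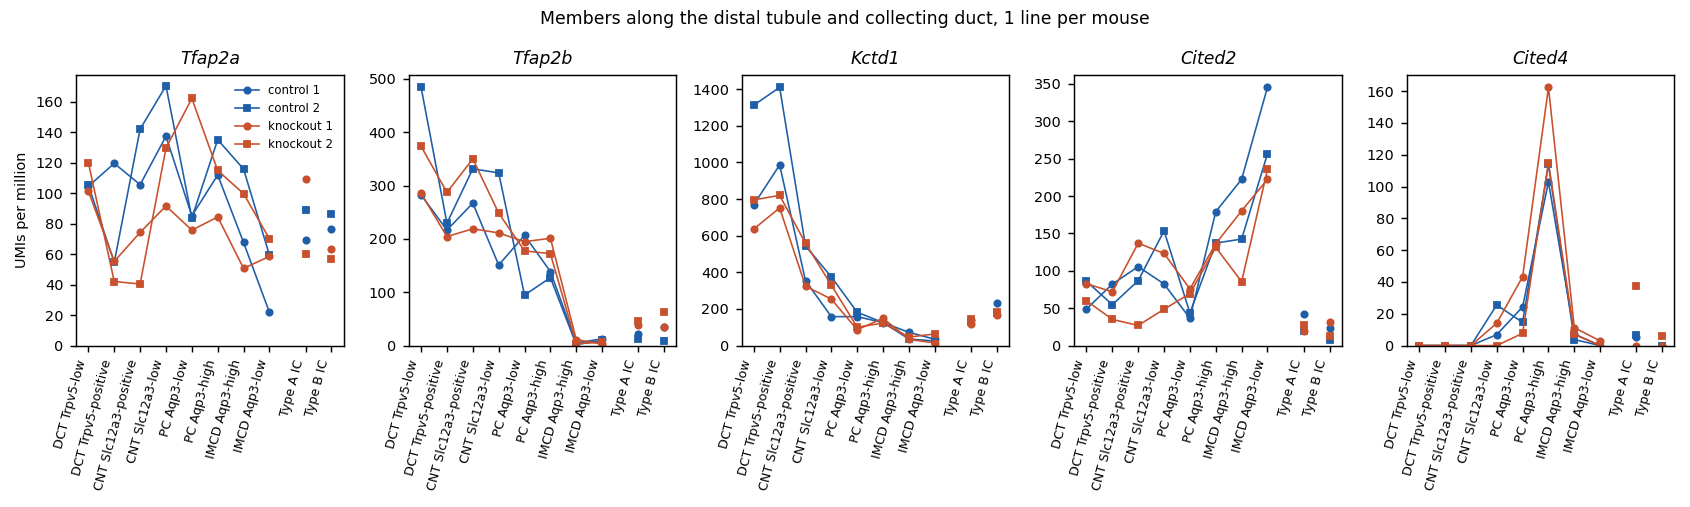
Levels in CPM (y axis, linear, a scale of its own for each gene) of *Tfap2a*, *Tfap2b*, *Kctd1*, *Cited2* and *Cited4* in the subclusters from DCT to inner medullary collecting duct (x axis, joined by lines) and in type A and type B intercalated cells (IC, unjoined), with 1 line per mouse, blue for controls and red for knockouts. *Tfap2b* and *Kctd1* are lower in both IMCD subclusters than in DCT and CNT in all 4 mice, *Cited2* is highest in the last IMCD subcluster and *Cited4* peaks in principal cells with high *Aqp3*.

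Since *Tfap2a* and *Tfap2b* can form dimers with each other, the share of *Tfap2a* among the UMIs of both genes was followed along the tubule. UMIs per transcript can differ between the genes, so the course of the share is given, not its absolute value. Intervals are exact binomial at 95% and cover counting error only. In controls the share was 2.23% (1.45 to 3.28) and 1.07% (0.603 to 1.77) in TAL, 27.1% (20.7 to 34.3) and 17.9% (12.7 to 24.3) in DCT and 35.1% (27.5 to 43.4) and 28.8% (21.9 to 36.4) in CNT. It was 56.3% (47.8 to 64.6) and 65.8% (60.01 to 71.3) in CD-PC and 70.2% (55.1 to 82.7) and 88.6% (75.4 to 96.2) in CD-IC. In each of the 2 mice the share was higher at each of these 4 steps, and the values of DCT, CNT and CD-PC did not overlap between segments. The last step, from CD-PC to CD-IC, is between 2 kinds of collecting duct cell and not between segments. With nuclei under 1% mitochondrial UMIs the order of the means turned at the step from DCT to CNT and at that from CD-PC to CD-IC. The shares in control mice 1 and 2 were then 7.35% and 1.19% in TAL, 66.7% and 18.9% in DCT, 21.2% and 27.8% in CNT, 69.6% and 68.6% in CD-PC and 25% and 86.8% in CD-IC. In control mouse 2 the share was still higher at each of the 4 steps, and the DCT and CD-IC values of control mouse 1 were those that turned the order. The median mitochondrial share of control mouse 1 was 1.80% in TAL, 1.63% in DCT, 1.51% in CNT, 1.46% in CD-PC and 1.62% in CD-IC. Most of its nuclei in each of these classes were therefore left out in this setting. The part of this in the turned order was not tested.

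Within CD-PC the share differed between subclusters. In principal cells with low *Aqp3* it was 29.2% (12.6 to 51.1) and 46.9% (32.5 to 61.7), and in those with high *Aqp3* 44.6% (31.3 to 58.5) and 51.5% (42.8 to 60.1). In IMCD with high *Aqp3* it was 93.3% (77.9 to 99.2) and 98.4% (91.3 to 99.96), and in IMCD with low *Aqp3* 63.2% (38.4 to 83.7) and 86.1% (70.5 to 95.3), from 12 and 31 *Tfap2a* UMIs and 7 and 5 *Tfap2b* UMIs. UMIs of both genes in 1 nucleus were seen in 12.4% and 17.1% of CNT nuclei, 6.13% and 11.2% of DCT nuclei and 4.25% and 2.73% of CD-PC nuclei. No nucleus of the IMCD subclusters in a control mouse had both.

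**Figure D3:**
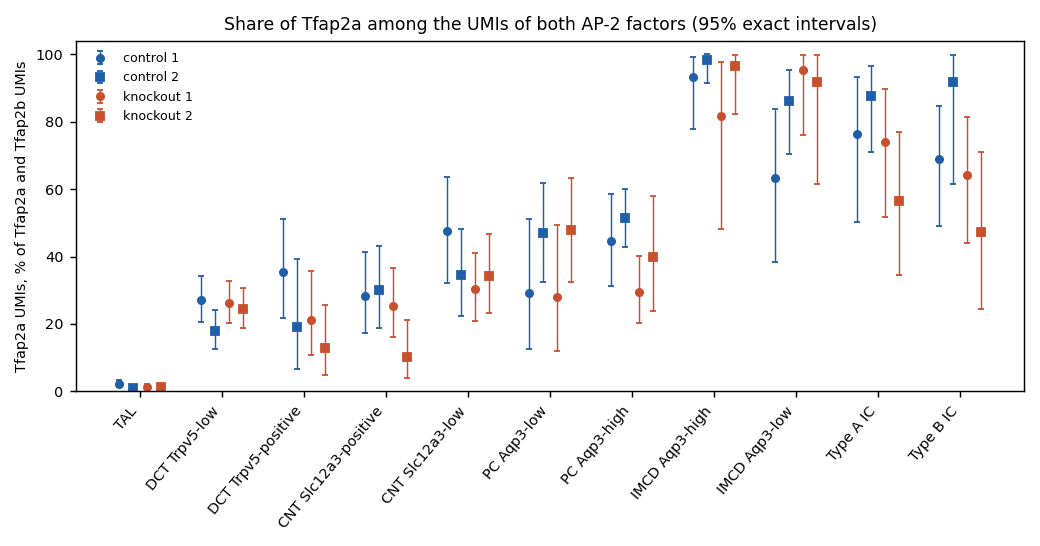
Share of *Tfap2a* among the UMIs of *Tfap2a* and *Tfap2b*, in percent (y axis, linear), in TAL and the 10 distal subclusters (x axis), with 1 point per mouse, controls in blue and knockouts in red, and exact binomial intervals of 95% as bars. The share is at most 2.23% in TAL of the 4 mice and 93.3% and 98.4% in IMCD with high *Aqp3* of the 2 controls.

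For each member the genes with the most like course over the classes were found among 12052 genes, by Pearson correlation of log2(CPM + 5) over 24 points, the 12 classes of 2 control mice. The points share libraries and differ in depth, so the values are descriptions. Most like *Tfap2a* were *Gm26688* (r = 0.976), *Tox3* (r = 0.937) and *Defb1* (r = 0.926). Among the genes most like *Tfap2b* were *Kcnj1*, the potassium channel ROMK (r = 0.915), and *Fads6* (r = 0.908). *Kctd1* was most like the kinase gene *Mapk10* (r = 0.937), *Ccdc160* (r = 0.908) and *Ppp2r2b* (r = 0.907). *Cited4* was most like *Arhgdig* (r = 0.837), *Fxyd4*, a regulator of ion transport in the collecting duct (r = 0.828), and *Apex1* (r = 0.806). Among the genes most like *Cited2* were *Nbl1* (r = 0.758) and the urea transporter gene *Slc14a2* (r = 0.720), and *Kctd15* like *Zfp251* (r = 0.737), *Dtnbos* (r = 0.727) and *Rpgr* (r = 0.726). Among the members themselves, *Tfap2b* and *Kctd1* had r = 0.834, *Tfap2a* and *Kctd1* 0.754 and *Tfap2a* and *Tfap2b* 0.560, while *Cited2* had 0.066 with *Tfap2a*, −0.028 with *Tfap2b* and −0.080 with *Kctd1*.

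The second question of the design is how the members differ when *Tfap2a* is deleted in the ureteric lineage. The sums of UMIs over the nuclei of a class in each mouse were compared between genotypes with edgeR's quasi-likelihood test. No member passed the adjusted threshold in any of the 12 classes (0 of 47 tests by edgeR; 5 at an unadjusted p under 0.05; 0 called and 2 at an unadjusted p under 0.05 by DESeq2). Few genes of any kind passed: 0% of those tested in podocytes, TL, DCT, CNT, CD-PC, CD-IC, interstitial and immune cells, 0.00564% in PT, 0.0135% in TAL, 0.0097% in DMEP and 0.016% in EC. The smallest p that exact permutation of 4 mice in equal groups allows for any 1 value is 0.33, and the values of the mice are given as measured. By DESeq2, 20 genes were called in PT, 4 in TAL, 2 in DCT, 2 in CD-PC and 1 in EC, none of them a member. The 5 tests were those of *Tfap2a* in CNT and DMEP, *Tfap2b* in CD-PC and CD-IC and *Cited4* in TL. Of all genes tested there by edgeR, 229 of 11179 had an unadjusted p under 0.05 in CNT and 444 of 10304 in DMEP. The counts were 314 of 13582 in CD-PC, 261 of 11333 in CD-IC and 389 of 12245 in TL.

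*Tfap2a*, the targeted gene, had 57.2 and 96.4 CPM in CD-PC of controls and 63.3 and 106 CPM in CD-PC of knockouts, from 80 and 187 and from 66 and 80 UMIs. The groups overlapped, with a log2 change of 0.11 ± 0.35 (adjusted p = 0.999), and it turned to −0.22 without control mouse 1, −0.31 without knockout mouse 2 and −0.015 with nuclei under 1% mitochondrial UMIs. In CNT the 2 knockouts, at 75.4 and 69.8 CPM, lay below the 2 controls, at 112 and 124 CPM, with a log2 change of −0.70 ± 0.30 (adjusted p = 1). In DCT controls had 105 and 106 CPM and knockouts 101 and 118 CPM. In CD-IC controls had 70.6 and 87.4 CPM and knockouts 74.8 and 58.0 CPM, and the groups overlapped.

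DMEP was the class with the widest gap of *Tfap2a*. The control mice gave 11 UMIs each in 67 and 93 nuclei, and the knockout mice gave none in 31 and 31 nuclei. Over the group, 22 UMIs of 699291 in controls are 31.5 CPM. In knockouts a count of 0 among 296829 UMIs allows up to 10.1 CPM (3 counts over both libraries). This limit was 3.11-fold below the pooled control value, whose own counting error is left out. Per nucleus, 0 of 62 knockout nuclei allows a share with a *Tfap2a* UMI of up to 4.84%, against 19 of 160 control nuclei. Both limits pool the mice of a genotype and do not cover the spread between mice. The edgeR test gave an adjusted p of 0.751 over 10304 genes. *Tfap2b* had 3 and 4 UMIs in DMEP of controls and none in knockouts, which is at the same limit of a count of 0, and no fold is given. *Kctd1* stood at 76.8 and 123 CPM in DMEP of controls and 96.1 and 68.1 CPM of knockouts, and *Cited2* at 123 and 114 CPM of controls and 44.3 and 80.5 CPM of knockouts, which did not overlap (−0.84 ± 0.43, adjusted p = 0.999).

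*Tfap2b* was higher in both knockouts in both kinds of collecting duct cell. In CD-PC it had 44.3 and 50.02 CPM in controls and 85.4 and 62.5 CPM in knockouts, a log2 change of 0.65 ± 0.29 (adjusted p = 0.999), which was 0.38 without knockout mouse 1. In CD-IC it had 29.96 and 11.2 CPM in controls and 43.6 and 48.4 CPM in knockouts, from 14 and 5 and from 21 and 20 UMIs (1.15 ± 0.49, adjusted p = 0.995), a change that was 0.60 without control mouse 2 and 2.00 without control mouse 1. These CD-IC levels lie near or below the *Tfap2b* level in free RNA, which was 47.8 and 58.7 CPM in control and 43.6 and 78.7 CPM in knockout libraries. The CD-PC levels of both controls and of knockout mouse 2 also lay below the free RNA of their own libraries. That of knockout mouse 1 lay above it. Summed markers of other classes also differed, some upward and some downward. In CD-PC the DCT markers stood at 106 and 106 CPM in controls and 305 and 218 CPM in knockouts, while the TAL markers stood at 1091 and 895 CPM and at 674 and 400.0 CPM. In CD-IC the CD-PC markers stood at 657 and 643 CPM in controls and 1144 and 711 CPM in knockouts. The TAL markers there stood at 1866 and 1441 CPM in controls and 1066 and 1165 CPM in knockouts. The DCT markers there, at 379 and 125 CPM in controls and 405 and 290 CPM in knockouts, overlapped. The part of all these markers in the *Tfap2b* differences was not tested. The makeup of CD-PC differed between mice, with IMCD at 67.0% and 47.3% of the subclustered principal nuclei in controls and 47.0% and 52.6% in knockouts, and the part of this makeup in the *Tfap2b* difference was not tested. In the sodium channel principal cells alone *Tfap2b* averaged 137 CPM in controls and 187 CPM in knockouts and did not overlap (0.50 ± 0.31, adjusted p = 1), and in IMCD it differed by −0.51 ± 0.82. In TAL controls had 400 and 455 CPM and knockouts 423 and 498 CPM.

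In DCT and CNT the level of *Tfap2b* overlapped between genotypes, with log2 changes of −0.27 ± 0.35 and −0.03 ± 0.33. In TL, both knockouts, at 23.5 and 12.9 CPM, lay below both controls, at 28.9 and 27.9 CPM (−0.66 ± 0.48, adjusted p = 1). These TL levels come from 10 and 6 and from 19 and 22 UMIs and lie below the free RNA of each library. The share of *Tfap2a* among the UMIs of both genes was 42.6% (34.7 to 50.8) and 63.0% (54.0 to 71.4) in CD-PC of knockouts, against 56.3% and 65.8% in controls. In CD-IC it was 63.2% (49.3 to 75.6) and 54.5% (38.8 to 69.6) in knockouts, below the 70.2% and 88.6% of controls, and in CNT 26.3% (20.5 to 32.7) and 19.3% (13.7 to 26.0), below the 35.1% and 28.8% of controls. These shares were not tested.

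No change of *Kctd1* was called between genotypes. Its log2 changes over 10 classes ran from −0.55 to 0.33, 7 of them below 0. In DCT controls had 759 and 1312 CPM and knockouts 660 and 795 CPM, which overlapped (−0.55 ± 0.35, adjusted p = 1). In CD-PC the values were 67.9 and 73.2 CPM in controls and 68.1 and 77.1 CPM in knockouts (0.03 ± 0.26), and the sign of this small change turned under 5 of its alternatives. *Kctd15* had 20.7 and 10.3 CPM in CD-PC of controls and 10.6 and 10.6 CPM of knockouts (−0.52 ± 0.50, adjusted p = 0.999). In DCT both knockouts, at 9.35 and 6.79 CPM, were below both controls, at 19.7 and 16.0 CPM, from 5 and 3 and from 9 and 5 UMIs.

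*Cited2* was below 0 on the log2 scale in 10 of the 11 classes tested, and no change was called. In CD-PC controls had 247 and 160 CPM and knockouts 163 and 124 CPM (−0.49 ± 0.31, adjusted p = 0.999), and the groups overlapped. This change ran from −0.76 without control mouse 2 to −0.17 without control mouse 1. In PT both knockouts, at 41.2 and 31.8 CPM, lay below both controls, at 43.1 and 53.3 CPM (−0.41 ± 0.21, adjusted p = 1), and in TL at 188 and 114 CPM against 205 and 197 CPM (−0.42 ± 0.35, adjusted p = 1). The classes of a mouse share its library, so these 10 values are not independent of each other. *Cited4* was above 0 in 5 of 6 classes tested. In TL it gave 2 and 1 UMIs in controls and 10 and 5 UMIs in knockouts, or 3.04 and 1.27 CPM and 23.5 and 10.7 CPM (2.89 ± 0.86, adjusted p = 1). In CD-PC it had 21.4 and 36.1 CPM in controls and 62.4 and 22.6 CPM in knockouts, which overlapped (0.58 ± 0.46, adjusted p = 0.999) and turned to −0.38 without knockout mouse 1, and in DMEP 15.4 and 6.84 CPM and 29.6 and 24.8 CPM (1.40 ± 0.85, adjusted p = 0.999).

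**Figure D4:**
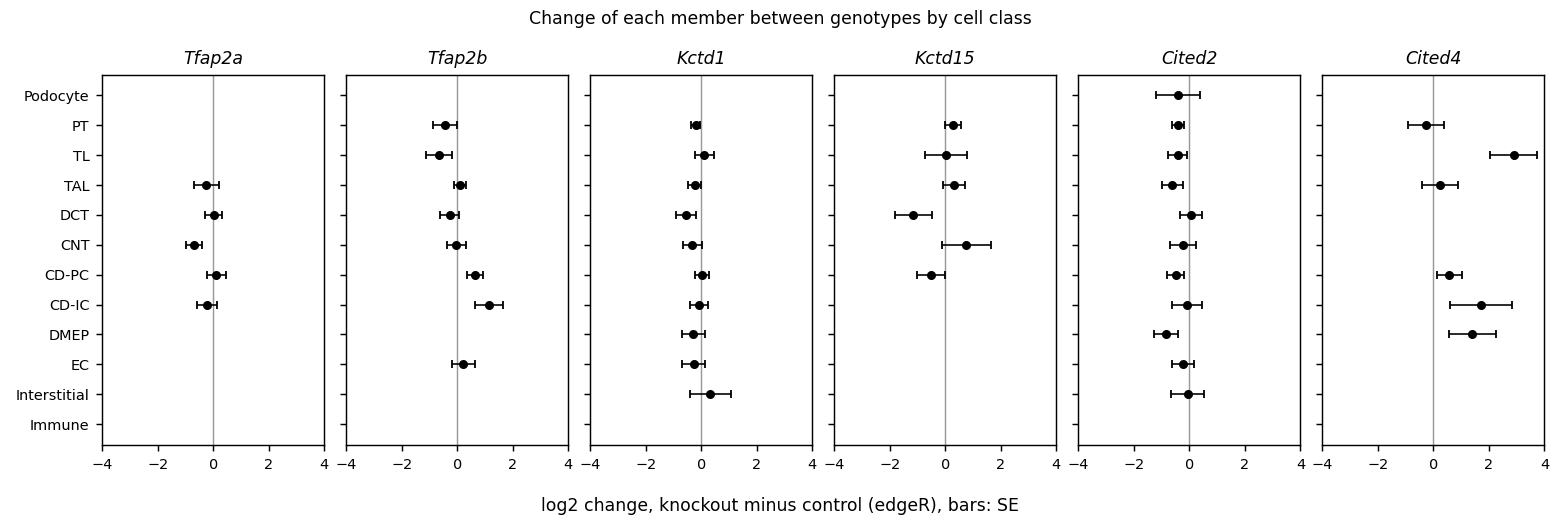
Change of each member between genotypes as log2 of knockout over control (x axis, edgeR estimate from 2 against 2 mice, bars are the standard error) in each cell class (y axis), where both genotypes had UMIs and the sum reached 10. None of the changes was called, and *Tfap2b* lies above 0 in CD-PC and CD-IC, *Cited2* below 0 in 10 of 11 classes, and *Tfap2a* in DMEP is left out since both knockouts gave no UMI.

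In the finer classes of the collecting duct no member was called either (0 of 21 tests; 1 at an unadjusted p under 0.05; DESeq2 was not run there), where 0% of all genes were called in sodium channel principal cells and in type A and type B cells and 0.00832% in IMCD. The 1 value was *Tfap2b* in type A cells, which averaged 17.02 CPM in controls and 42.5 CPM in knockouts (1.38 ± 0.62, adjusted p = 0.999). Of all genes tested in type A cells by edgeR, 252 of 9500 had an unadjusted p under 0.05. The change in CD-PC was set against that in TAL, a class not among the sites named for Hoxb7Cre, in the fit over all classes. The difference of the changes was 0.31 ± 0.48 for *Tfap2a*, 0.56 ± 0.33 for *Tfap2b*, −0.86 ± 0.68 for *Kctd15*, 0.24 ± 0.33 for *Kctd1*, 0.08 ± 0.32 for *Cited2* and 0.16 ± 0.69 for *Cited4*. None of the 6 was called or had an unadjusted p under 0.05, by edgeR or by DESeq2, beside 0.0149% of all genes called by edgeR.

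The other proteins that AP-2 factors bind were followed as a list of 18 genes, and genes described as AP-2 targets outside the kidney as a list of 12. In CD-PC 15 and 11 of them were tested, and none was called between genotypes in any class, by edgeR. In CD-PC the median log2 change was −0.09 for the binding partners and −0.16 for the targets, beside 0.01 for all genes. Of the partners with most UMIs, *Crebbp*, which encodes CBP, had 234 and 213 CPM in CD-PC of controls and 221 and 251 CPM of knockouts, and *Wwox* and *Rb1* differed by log2 values of 0.18 ± 0.38 and −0.17 ± 0.27. Of the targets with most UMIs, *Egfr*, the EGF receptor, had 583 and 772 CPM in CD-PC of controls and 387 and 429 CPM of knockouts (−0.74 ± 0.32, adjusted p = 0.999), and in CNT it differed by −0.68 ± 0.30 (adjusted p = 1). Its change was also below 0 in TAL (−0.52 ± 0.32) and TL (−0.46 ± 0.38), and among the classes tested it was above 0 only in DCT (0.03 ± 0.31). The *Egfr* change in CD-PC differed from that in TAL by −0.26 ± 0.30, which was not called. *Cdh1*, which encodes E-cadherin, differed in CD-PC by −0.05 ± 0.33, *Esr1* by −0.55 ± 0.49 and *Igfbp5* by 0.09 ± 0.62. In controls, 7 of 18 partners were higher and 1, *Wwox* (−0.97 ± 0.23, adjusted p = 0.000305), was lower in CD-PC than in CNT, and of the 12 targets 2 were higher and 2 lower, beside the 17.4% of all genes called there.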

How the data were processed

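The authors deposited raw UMI counts per gene and barcode from 10x single-nucleus libraries, made with Cell Ranger 3.0.2 on mm10; whether introns were counted is not given in the sources used here. Of the 10000 barcodes with most UMIs per library, those with more than 500 genes, fewer than 4000 genes and less than 5% of UMIs from mitochondrial genes were kept as nuclei. Nuclei were integrated over libraries and clustered in Seurat 5.3.0 (2000 variable genes without the 7 members, 30 dimensions, resolution 0.5), and clusters were named from markers that do not include the members; 1582 nuclei in damaged, mixed or unnamed clusters were left out. Called doublets, 4.35% to 6.40% of nuclei per library, were kept and left out in an alternative. Sums of UMIs over each class of each mouse were tested in edgeR 4.0.16 (R 4.3.3; TMM, quasi-likelihood, Benjamini-Hochberg, genes with at least 10 UMIs, called at an adjusted p under 0.05). The fit had first been run on simulated counts, with large changes put only into genes with many UMIs. That run does not cover small changes or members with few UMIs. DESeq2 1.42.0, other filters, subtraction of free RNA, other clusterings and leaving out each mouse were alternatives. Libraries held 22179410 to 44964099 UMIs, and intervals cover counting error only. The labels number the mice within each genotype and name no shared litter or day, so each mouse is 1 replicate.

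The members and lists were chosen with earlier results of these data known. The genes named were the 7 members, the 3 genes most like each member with at least 50 UMIs in controls (among genes with at least 20 CPM in a class of each control), and from the partner and target lists the genes called between genotypes and up to 4 others with most UMIs. *Tfap2c*, with 4 UMIs, had no like genes and no test. Some genes that the rule names are not reported here.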

Additional observations from a re-analysis of the deposited data

Results flagged for a closer look

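In 4 pairs of classes a member lay higher in both knockouts in one class and lower in both in the other. The differences between classes were not tested. The groups did not overlap in 14 of the 47 tests of a member in a class. A split of 4 mice without overlap has p = 0.33 by exact permutation. The share of all genes without overlap was not counted, so the 14 of 47 are not read as a result about the members. For *Tfap2b* the log2 change was 0.65 in CD-PC and −0.66 in TL, a gap of 1.31, and 1.15 in CD-IC against the same −0.66 in TL, a gap of 1.81. The TL change rests on 19 and 22 UMIs in controls and 10 and 6 UMIs in knockouts, at levels below the free RNA of each library. For *Kctd1* it was 0.12 in TL and −0.20 in PT, a gap of 0.31. For *Kctd15* it was 0.76 in CNT and −1.15 in DCT, a gap of 1.91, from 1 to 9 UMIs per mouse and class.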

How the results depend on the processing

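The count of members called between genotypes was 0 under each of 14 alternatives, and that of members with a different change in CD-PC and TAL was 0 under each of 13. The count called between adjoining segments, 22, was 14 with nuclei under 1% mitochondrial UMIs and 15 to 23 with a mouse left out. Under 1% mitochondrial UMIs the mean *Tfap2a* share moved from 1.65% to 4.27% in TAL, from 22.5% to 42.8% in DCT, from 31.9% to 24.5% in CNT, from 61.1% to 69.1% in CD-PC and from 79.4% to 55.9% in CD-IC. With a control mouse left out it ran from 28.8% to 35.1% in CNT, 56.3% to 65.8% in CD-PC and 70.2% to 88.6% in CD-IC. The log2 change in CD-PC turned for *Tfap2a* to −0.015 under 1% mitochondrial UMIs and ran from −0.31 to 0.56 with a mouse left out (−0.22 without control mouse 1), for *Kctd1* to −0.00095 without called doublets, −0.015 with free RNA subtracted and −0.018 under 1% mitochondrial UMIs, with −0.066 to 0.11 over the mice left out (−0.035 without control mouse 1), for *Cited4* to −0.38 without knockout mouse 1 (range to 1.08) and for *Kctd15* to 0.020 without control mouse 1 (range from −0.95). With a mouse left out the change in CD-PC ran from 0.38 to 0.84 for *Tfap2b* and from −0.76 to −0.17 for *Cited2*. The *Tfap2a* difference between TL and PT turned to −1.61 without called doublets and −1.05 under 1% mitochondrial UMIs. The causes were not tested. At resolution 0.8 no cluster was named CNT, so the adjoining-segment count and the CNT share have no value there, and IMCD was not compared with sodium channel principal cells there or without integration. With the replicate number as a block the count between genotypes was 0, and deviations of same-numbered mice had correlations of 0.416 in PT, 0.505 in TAL, 0.433 in CD-PC and 0.341 in EC over genes, with 2 pairs and no pairing in the labels.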
